A study of Homo sapiens with 13 samples.

Results

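Genes of the actin cytoskeleton, 10 of the 19894 protein-coding genes with an annotated canonical start site, were read against maps of chromatin marks and factors in 1 breast cancer cell line. They were chosen by name: the actins ACTB and ACTG1, the tropomyosins TPM1, TPM2 and TPM4, the myosin light chain MYL9, the actin-binding protein transgelin (TAGLN), the α-actinins ACTN1 and ACTN4, and talin-2 (TLN2). MDA-MB-231 is an established human line from a triple-negative tumour that the labels class as basal b, and all cells were untreated and grown in serum. Immunoprecipitated chromatin was sequenced for H3K4me1, H3K27ac, H3K4me3, RNA polymerase II (Pol II) and CTCF in 2 libraries per antibody, and for p300/CBP in 1 library from pooled precipitations, beside 2 inputs. For each antibody a single list of peak positions on hg19 was analysed, made after the replicates had been merged. A peak is therefore present or absent, with a width and a position but no height, and sequencing depth is unknown. Since there is 1 line, 1 condition and no replicate to compare, no test between groups was possible, and the genes are set beside all protein-coding genes as a description.

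Actin monomers polymerise into filaments, tropomyosins wind along these filaments and set which proteins can bind them, and α-actinins tie filaments into bundles. Myosin light chains such as MYL9 switch on contraction of non-muscle and smooth-muscle myosin, and talins link filaments to integrins at adhesions. Many genes of this kind are targets of serum response factor (SRF), which binds a short motif called the CArG box together with the MRTF coactivators, themselves held inactive by actin monomers. H3K4me3 lies around active start sites, H3K4me1 at enhancers and promoter flanks, H3K27ac at both when active, p300 and CBP are acetyltransferases that deposit it, and CTCF is an insulator and loop-anchor protein.

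A CArG box was searched on both strands in the 300 bases from 250 upstream of each start to 49 past it. Of 19881 such windows at the canonical starts of protein-coding genes, 1.20% held a box. At ACTG1 it began 94 bases before the canonical start. At TPM4 it began 173 bases before an upstream start, which is not canonical, so that the share does not apply to it. The same holds for boxes at further starts of ACTG1 and ACTN1. These began 149 bases before the ACTG1 start 1.84 kb upstream of the canonical one, and 171 bases before the ACTN1 start 1.74 kb downstream. The motif is a description of the letters and not a measured SRF site, since SRF was not mapped. The stretches from 200 to 27 bases before the canonical ACTG1 start and the upstream TPM4 start are shown, with the CArG box in capitals. They are on the strand of the gene and were read from GRCh37 (hg19).
ACTG1 (chr17:79479852-79480025, minus strand): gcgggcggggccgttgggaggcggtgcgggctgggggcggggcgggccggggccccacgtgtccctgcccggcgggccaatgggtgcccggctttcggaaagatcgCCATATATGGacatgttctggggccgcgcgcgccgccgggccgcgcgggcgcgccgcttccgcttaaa
TPM4 upstream start (chr19:16178148-16178321, plus strand): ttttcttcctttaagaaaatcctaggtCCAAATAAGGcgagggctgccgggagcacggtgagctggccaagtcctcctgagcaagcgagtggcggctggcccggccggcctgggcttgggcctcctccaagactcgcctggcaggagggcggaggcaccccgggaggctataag

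Other motifs were searched on both strands in such windows at the canonical starts only. GGGCGG, the letters bound by Sp1-type factors, stood in 9 of 10 members and in 61.4% of all windows, and CCAAT in 4 of 10 and 36.0%. TGANTCA, the AP-1 motif, was found in ACTN4 alone (5.40% of all windows), and GGAATG, the TEAD motif, in TPM1 alone (11.3%).

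A promoter window was taken as the 3 kb centred on the canonical start (TSS), and a mark as present when a peak shared at least 1 bp with it. H3K27ac was present in the window of all 10 genes, against 61.4% of all windows. H3K4me3 was present in 8, against 62.7%, and Pol II in 9, against 58.4%. All 3 together stood in 8 of 10, against 56.2%. H3K4me1 was present in 8, against 59.3%, and CTCF in 4 (ACTB, MYL9, TAGLN and TLN2), against 17.6%. No p300/CBP peak lay in any of the 10 windows, and only 0.769% of all windows held one. TPM1 and TAGLN were the 2 members without H3K4me3, and TPM1 was the member without Pol II.

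**Figure D1:**
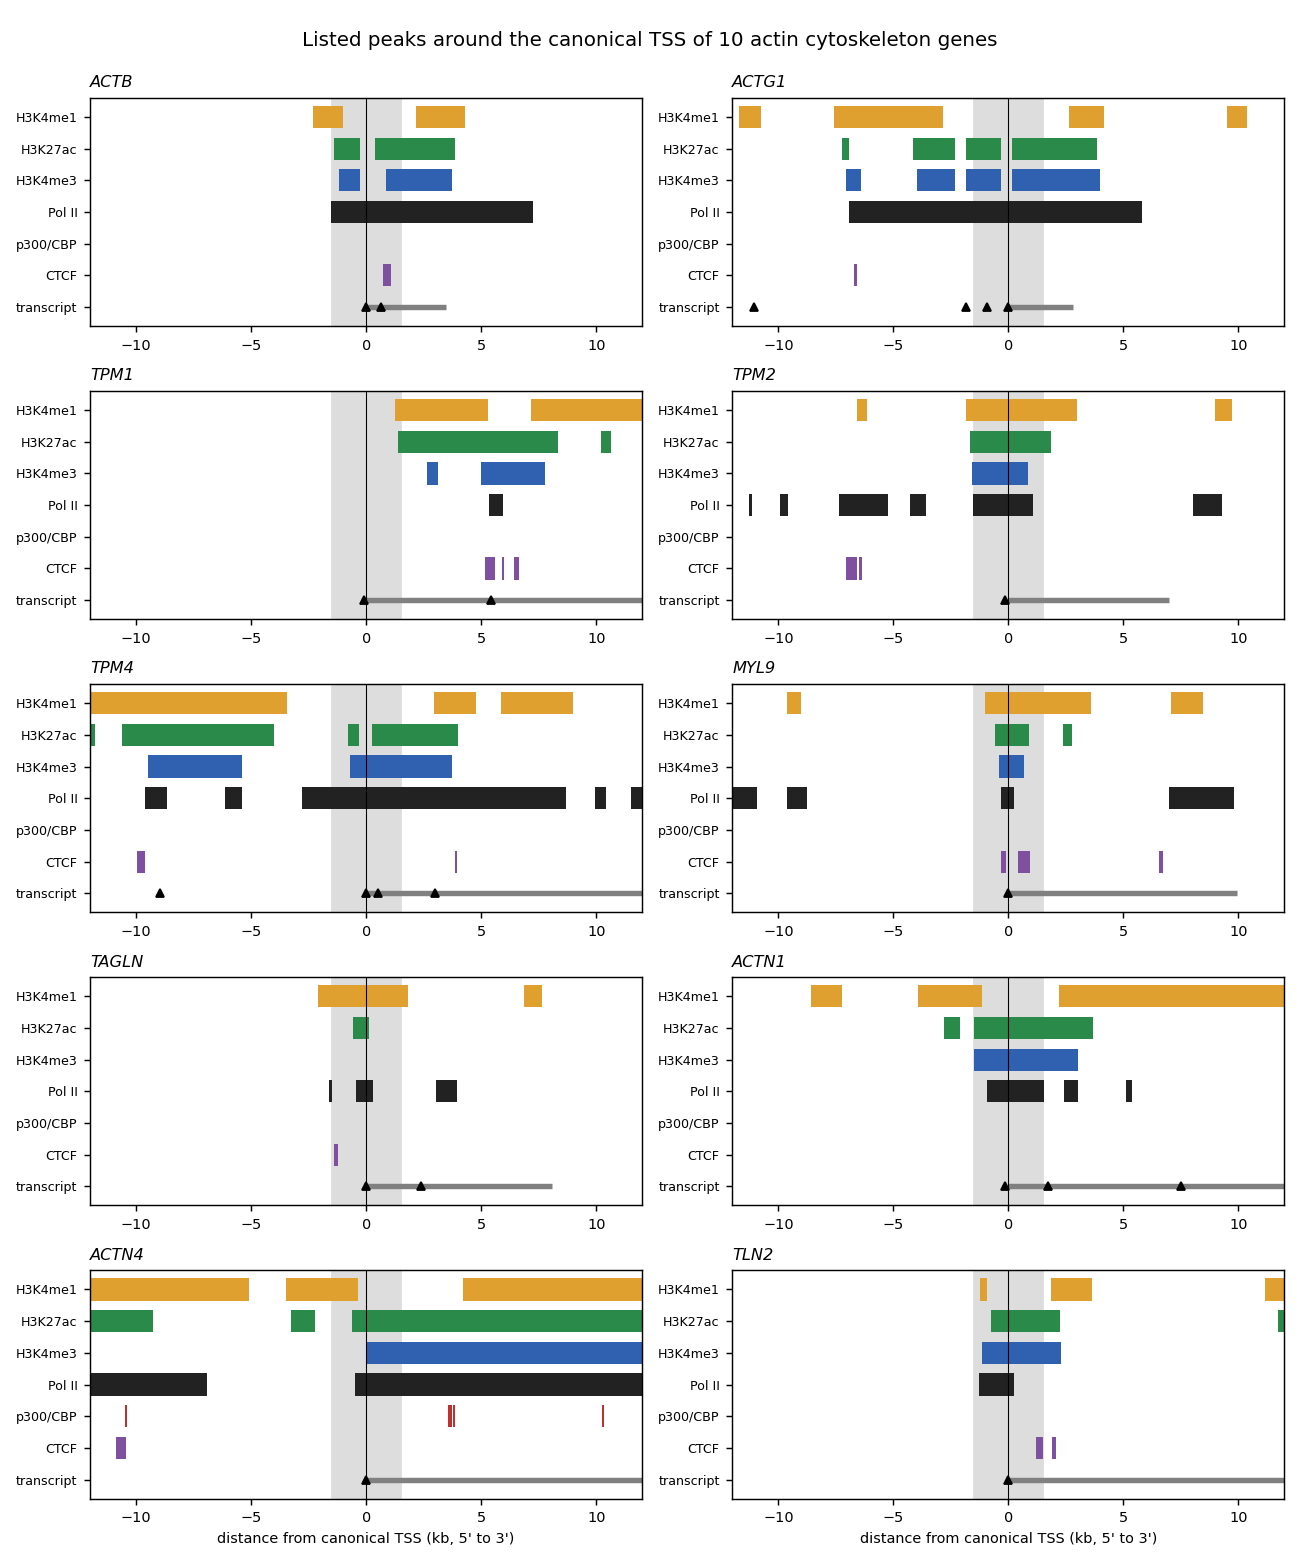
Listed peaks of the 6 antibodies within 12 kb of the canonical TSS of each gene, drawn 5′ to 3′ along the gene (x axis, distance from the TSS in kb). Bars are peaks, the grey band is the 3 kb promoter window, the grey line the canonical transcript and triangles the annotated start sites; the marks of TPM1 stand around its internal start 5.42 kb downstream, and TAGLN has no H3K4me3 bar.

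ACTB (ENSG00000075624.17, chr7:5566040-5603533, minus strand) and ACTG1 (ENSG00000184009.13, chr17:79476439-79490873, minus strand) encode the cytoplasmic actins, which every non-muscle cell uses. At ACTB a Pol II peak of 8750 bp ran from 1.52 kb before the TSS to 7.23 kb after it, past the end of the 3.45 kb canonical transcript. H3K27ac peaks stood either side of the start without covering it, 1 of 1150 bp ending 269 bases upstream and 1 of 3500 bp beginning 382 bases downstream. H3K4me3 likewise left the start free, with 900 bp upstream and 2850 bp downstream. A CTCF peak of 350 bp lay from 732 to 1081 bases past the TSS, and the H3K4me1 peak of the window ended 1019 bases upstream.

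ACTG1 showed the same arrangement on a larger scale of Pol II. Its Pol II peak of 12750 bp began 6.93 kb before the TSS and ended 5.82 kb after it, at percentile 97.3 of the Pol II peaks found in promoter windows. H3K27ac and H3K4me3 ended 326 bases before the start and began again 175 bases after it, with downstream widths of 3700 bp and 3800 bp. Neither H3K4me1 nor CTCF touched its window. Both canonical transcripts lay wholly inside Pol II peaks (100% covered). Because only uniquely mapped reads were counted and both actins have processed copies elsewhere, the 50-base words of their windows were searched in the genome. Of 60 words, 1 of ACTB and 0 of ACTG1 occurred elsewhere, and in their transcripts 4 of 69 and 3 of 56 did.

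ACTB has 2 further groups of annotated starts, a group being starts less than 500 bp apart. The 1 lying 33.3 kb upstream had H3K27ac of 1800 bp, H3K4me3 of 2250 bp, Pol II of 150 bp and CTCF of 400 bp. This distant start stretches the annotated gene to 37.5 kb, so that Pol II covered 26.6% of the whole span. ACTG1 has further starts 11.05, 1.84 and 0.92 kb upstream. The farthest showed only an H3K4me1 peak of 950 bp, while the windows of the nearer ones held H3K27ac, H3K4me3 and the Pol II peak of 12750 bp.

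The tropomyosins differed in which of their start sites were marked. TPM1 (ENSG00000140416.25, chr15:63334819-63364114, plus strand) makes long and short tropomyosins from separate start sites, an upstream one and one inside the gene. The upstream group, 10 basic transcripts with the canonical TSS at chr15:63334946, held neither H3K4me3 nor Pol II. H3K4me1 and H3K27ac only grazed its canonical window, from 1255 and 1405 bases past the TSS. The internal group, 8 transcripts beginning 5.42 kb downstream at chr15:63340368, held an H3K27ac peak of 6950 bp, an H3K4me3 peak of 2750 bp, 3 CTCF peaks and a Pol II peak 600 bp wide. That 600 bp peak was the only Pol II peak in the gene and covered 2.05% of it. The pattern of the upstream window, H3K4me1 and H3K27ac without the other lists, was found in 168 windows, or 0.844% of all. In the upstream window none of 60 words of 50 bases occurred elsewhere in the genome.

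TPM4 (ENSG00000167460.17, chr19:16177831-16213812, plus strand) also has starts upstream and downstream, and here both were marked. Its canonical start at chr19:16187305 lay inside an H3K4me3 peak of 4450 bp and a Pol II peak of 11500 bp, which reached 8.70 kb into the gene. Of 10 Pol II peaks in the gene, 7 of 500 to 1700 bp followed that wide peak, and the 10 together covered 55.1% of the gene. The upstream start, 8.96 kb away and preceded by the CArG box shown above, had H3K27ac of 6600 bp, H3K4me3 of 4100 bp, the Pol II peak of 950 bp and CTCF of 350 bp. It lay within an H3K4me1 region of 9.9 kb.

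TPM2 (ENSG00000198467.16, chr9:35681989-35690053, minus strand) has a single group of starts, and all 3 histone marks and Pol II covered the TSS itself, with widths of 4800 bp for H3K4me1, 3550 bp for H3K27ac, 2450 bp for H3K4me3 and 2600 bp for Pol II. Its Pol II stopped 1.07 kb past the TSS and covered 14.9% of the gene. TPM3, the remaining human tropomyosin gene and not a member, was read because of TPM1 and after the values of TPM1 had been seen. Its canonical window held no peak of any list, while the group of starts 8.89 kb downstream held H3K27ac and H3K4me3 of 2950 bp each and Pol II of 1500 bp. In TPM1 and TPM3, then, the marked start was the internal one, in TPM4 both starts were marked, and in TPM2 the only one.

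MYL9 (ENSG00000101335.10, chr20:35169900-35179850, plus strand) and TAGLN (ENSG00000149591.17, chr11:117070086-117078180, plus strand) are known as smooth-muscle genes that other cells can also express. MYL9, the regulatory light chain, had narrow peaks over its TSS, with H3K27ac of 1450 bp, H3K4me3 of 1100 bp and Pol II of 550 bp. Its H3K4me3 width lay at percentile 11.7 of windows with that mark. A second Pol II peak of 2850 bp stood at the 3′ end, from 6.98 to 9.83 kb, and the 2 together covered 31.2% of the gene. A pair of CTCF peaks flanked the start, 1 of 200 bp ending 122 bases before it and 1 of 500 bp beginning 429 bases after it. The second held the CTCF core consensus with at most 1 mismatch, and the first did not.

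TAGLN, an actin-bundling protein related to calponin, was the member without H3K4me3 in its window or its gene body. Its TSS was covered by H3K27ac of 700 bp, by Pol II of 750 bp and by an H3K4me1 peak of 3900 bp. A CTCF peak of 150 bp lay from 1385 to 1236 bases upstream, beside a Pol II peak of 150 bp. A second Pol II peak of 950 bp stood from 3.02 to 3.96 kb, next to the other annotated start 2.38 kb downstream. Of 11241 windows with both H3K27ac and Pol II, 56 lacked H3K4me3, or 0.498%, and the 4 lists found at TAGLN occurred together without the others in 8 windows, or 0.0402%. The H3K27ac width was narrow for windows with that mark, at percentile 7.57. In the TAGLN window 0 of 60 words of 50 bases occurred elsewhere in the genome, and in its transcript 26 of 161 did (16.1%), the largest share among the 10 genes. The part of these repeated words in the missing gene-body peak was not tested.

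ACTN1 (ENSG00000072110.16, chr14:69340845-69446157, minus strand) and ACTN4 (ENSG00000130402.14, chr19:39138289-39222229, plus strand), the non-muscle α-actinins, differed widely in Pol II. At ACTN1 the TSS lay in H3K27ac of 5150 bp, H3K4me3 of 4500 bp and Pol II of 2500 bp, and 11 further Pol II peaks of 150 to 1700 bp were spread over the 105 kb gene, 8.84% of which was covered. Of those 11, 7 lay between 79.4 and 98.0 kb from the TSS, towards the 3′ end. ACTN4 was covered almost whole by 2 Pol II peaks of 25850 bp and 61550 bp, which took 98.7% of its 83.9 kb. The wider of them ranked 5 among the 26065 Pol II peaks of the genome.

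TLN2 (ENSG00000171914.17, chr15:62682725-63136830, plus strand) is a 454 kb gene and carried Pol II only at its start, in 1 peak of 1550 bp that covered 0.0608% of the gene. H3K27ac of 3000 bp and H3K4me3 of 3450 bp covered the same TSS. Of its other annotated starts, that 170.8 kb downstream held no peak of any list, and that 368.0 kb downstream held H3K27ac of 2100 bp and H3K4me3 of 250 bp without Pol II. TLN1, the widely expressed paralog, lies in the TPM2 locus, with 31.6% of the gene covered by Pol II. The Pol II peak over the TLN1 start was 10850 bp wide but lay mostly outside TLN1, across CREB3 and into GBA2. It ran from 52.7 to 41.8 kb upstream of the TPM2 TSS, and TLN1 starts 42.3 kb upstream of that TSS.

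The share of the gene body under peaks was read next, as a percent of the length of each gene. H3K4me1, H3K27ac and Pol II touched all 10 gene bodies, against 76.5%, 69.8% and 63.6% of all genes, and H3K4me3 touched 9, against 69.3%. CTCF touched 8, against 50.6%, and p300/CBP 2 (ACTN4 and TLN2), against 10.9%. The median share of the gene body covered by Pol II was 21.1% in the members and 0.752% in all genes. The corresponding medians were 25.05% and 2.81% for H3K27ac, 35.6% and 6.54% for H3K4me1, and 11.7% and 2.19% for H3K4me3. Pol II coverage ranged among the members from 0.0608% in TLN2 to 98.7% in ACTN4. ACTG1 (71.4%) and ACTN4 exceeded the 95th percentile of all genes, 64.7%, and TPM1 (2.05%) and TLN2 were the lowest. The genes differ in length from 8.07 kb (TPM2) to 454 kb (TLN2), and the part of length in these shares was not tested.

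**Figure D2:**
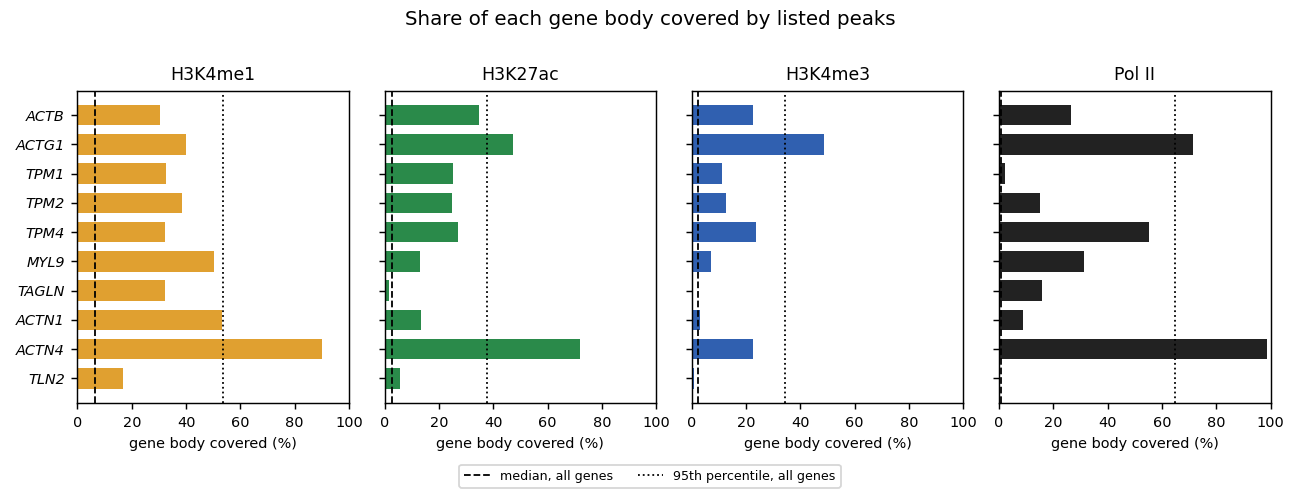
Percent of each gene body covered by peaks of H3K4me1, H3K27ac, H3K4me3 and Pol II (bars, 1 per gene), with the median (dashed) and the 95th percentile (dotted) of all protein-coding genes. Pol II runs from 0.0608% in TLN2 to 98.7% in ACTN4, and ACTG1 and ACTN4 lie beyond the dotted line.

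The same reading was made for 62 other genes of the actin system, taken from lists of paralogs, crosslinkers and adaptors, contractile proteins, filament turnover factors, the Arp2/3 complex and SRF with its coactivators. Their windows held H3K27ac in 49, H3K4me3 in 49, Pol II in 48 and all 3 in 47 of 62, where 56.2% of all windows held all 3. The Arp2/3 complex, which starts branched filaments, had all 3 in 8 of 8 genes, the crosslinkers and adaptors in 11 of 12, filament turnover in 12 of 13, the contractile list in 8 of 10 and SRF, MRTFA and MRTFB in 3 of 4 of their list. MYOCD, the muscle coactivator, was the exception in that last list. The paralogs of the members had all 3 in 5 of 15, namely ACTN3, MYL12A, MYL12B, TAGLN2 and TLN1.

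The muscle actins ACTA1, ACTA2, ACTC1 and ACTG2 had neither H3K27ac nor H3K4me3 in their windows. ACTA1 alone had Pol II there, in a peak of 700 bp that lay outside the gene and covered 0% of its body. In the gene bodies, ACTA2 (56.3 kb) had 3.37% under Pol II and 3.37% under H3K27ac, and ACTC1 and ACTG2 had 0% under both. Filamin A, which crosslinks filaments, had Pol II over 99.4% of its 26.1 kb, and PFN1 (profilin), TMSB4X, TMSB10 and MYL6 were each covered at 100%. These 5 genes were named after their values had been seen. The identity of the line was read from marker lists: all 3 marks stood at 5 of 5 basal b markers (VIM, CD44, EGFR, CAV1 and FOSL1), at 1 of 6 luminal markers (FOXA1) and at 0 of 5 skeletal-muscle markers.

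Candidate active enhancers (cAEs) were H3K4me1 regions that touched an H3K27ac peak and no promoter window, and candidate inactive enhancers (cIEs) those without H3K27ac. Within the gene bodies and 100 kb either side, 9 loci of 2.78 Mb in all because TPM1 and TLN2 adjoin, there were 82 cAEs, 97 cIEs, 27 p300/CBP peaks and 89 CTCF peaks. The median locus of a member held 7.5 cAEs, against 3 over all genes, 7.5 cIEs against 6, 0.5 p300/CBP peaks against 0 and 8 CTCF peaks against 5. TLN2 had the most cAEs, 21, then ACTB with 12 and ACTN1 with 10, and TAGLN the fewest, 3. Locus length ranged from 208 kb for TPM2 to 654 kb for TLN2, and its part in these counts was not tested.

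**Figure D3:**
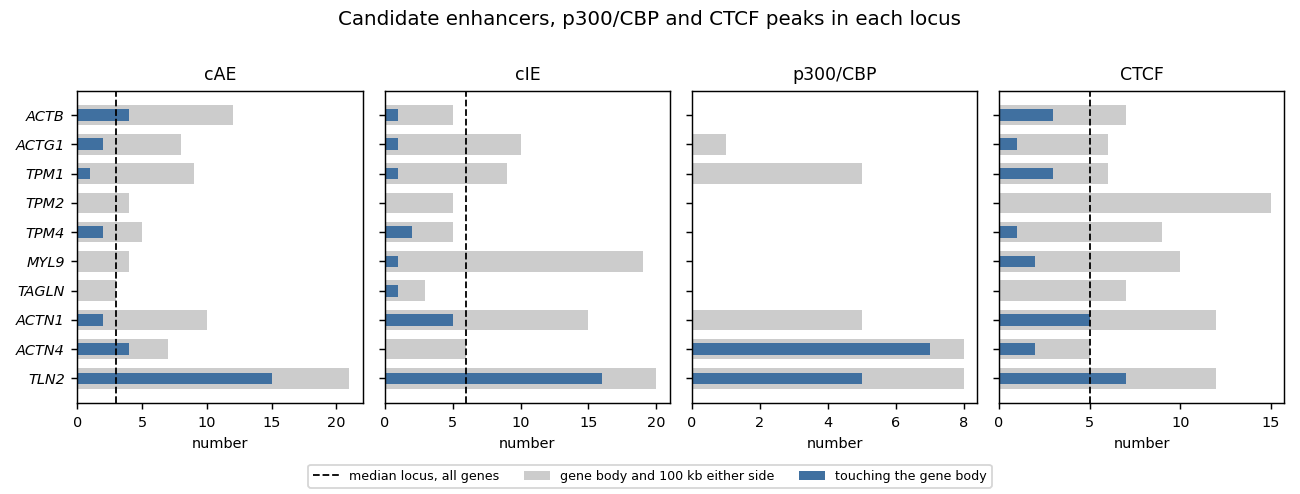
Number of cAEs, cIEs, p300/CBP peaks and CTCF peaks in each gene's locus (grey bars, gene body and 100 kb either side) and touching the gene body (blue bars), with the median locus of all genes (dashed line). TLN2 has 21 cAEs, 15 of them in its gene body, and 5 genes have no p300/CBP peak.

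The cAEs of these loci had a median width of 3250 bp, against 2550 bp for all 24323. Pol II peaks touched 35 of the 82, or 42.7% (95% Wilson interval 32.5% to 53.5%, counting error only), against 21.0% of all cAEs. CTCF touched 24, or 29.3% (20.5% to 39.9%), against 16.4%, and H3K4me3 35, or 42.7%, against 34.2%. p300/CBP touched 14, or 17.1% (10.5% to 26.6%), against 20.6%. Neighbouring cAEs share a locus and are not independent, which the intervals do not take in. The cAEs with Pol II were unevenly spread, with 8 of 12 at ACTB and 0 of 21 at TLN2. Some of them lay inside member genes under the Pol II peaks described above, such as the 4 cAEs in the ACTN4 gene body.

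cAEs held 22 of the 27 p300/CBP peaks (81.5%), against 50.1% of the whole list. Of all 27, in cAEs or not, 8 lay in the ACTN4 locus, 8 in that of TLN2, 5 each in those of TPM1 and ACTN1, and 1 in that of ACTG1. ACTB, TPM2, TPM4, MYL9 and TAGLN had none within 100 kb of the gene, and their nearest peaks were 126.5 kb (TAGLN) to 697.8 kb (MYL9) from the TSS. TGANTCA was found in 16 of the 27 windows of 300 bases centred on these peaks, against 38.3% of all p300/CBP windows and 57.0% of those in cAEs. GGAATG was found in 9 of 27, against 32.2%. The following peaks are shown on the plus strand, with each TGANTCA in capitals. They were picked from the peaks that hold this motif, to show it, and so do not stand for the windows without it.
TPM1 upstream (chr15:63307951-63308150): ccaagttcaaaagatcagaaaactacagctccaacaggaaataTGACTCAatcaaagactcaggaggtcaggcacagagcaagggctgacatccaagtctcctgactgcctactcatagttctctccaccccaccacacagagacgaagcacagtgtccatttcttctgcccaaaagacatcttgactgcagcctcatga
TPM1 downstream (chr15:63389351-63389500): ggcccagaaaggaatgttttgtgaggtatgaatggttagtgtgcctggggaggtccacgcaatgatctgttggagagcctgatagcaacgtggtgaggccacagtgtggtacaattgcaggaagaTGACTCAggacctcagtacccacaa
ACTN4 first of the pair (chr19:39174201-39174350): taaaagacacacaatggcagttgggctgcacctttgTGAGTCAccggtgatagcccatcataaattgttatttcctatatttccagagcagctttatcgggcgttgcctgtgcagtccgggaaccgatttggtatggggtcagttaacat
ACTN4 second of the pair (chr19:39174401-39174650): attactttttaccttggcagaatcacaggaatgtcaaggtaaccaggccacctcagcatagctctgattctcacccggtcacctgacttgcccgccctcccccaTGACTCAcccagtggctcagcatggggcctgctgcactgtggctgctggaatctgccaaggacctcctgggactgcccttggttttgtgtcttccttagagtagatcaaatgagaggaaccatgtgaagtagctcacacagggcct
TLN2 downstream (chr15:63189201-63189500): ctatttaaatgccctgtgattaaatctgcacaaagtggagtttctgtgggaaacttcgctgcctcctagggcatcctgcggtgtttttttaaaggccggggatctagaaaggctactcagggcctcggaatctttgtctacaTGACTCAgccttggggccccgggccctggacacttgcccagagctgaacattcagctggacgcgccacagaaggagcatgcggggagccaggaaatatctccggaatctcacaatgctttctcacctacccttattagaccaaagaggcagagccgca
The ACTN4 pair is intronic and the others lie outside the genes they are listed with, and none overlaps an exon of a basic transcript of that gene.

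TLN2 and TPM1 lie head to tail on chromosome 15, with 198 kb between the end of TLN2 and the canonical TSS of TPM1. Across this stretch and both genes, with 100 kb outside them, the lists held 29 cAEs, 29 cIEs, 13 p300/CBP peaks and 18 CTCF peaks, but only 10 Pol II peaks, none of them between the start of TLN2 and the internal start of TPM1. The p300/CBP peak 26.8 kb before the TPM1 start, shown above, lay in a cAE of 4.35 kb. A cAE 62.8 kb upstream and those 50.7 and 64.2 kb downstream held 1 peak each as well. Inside TLN2, p300/CBP peaks stood 12.8, 179.6, 215.8, 379.0 and 380.3 kb from its TSS. The peak at 179.6 kb lay in a cIE and the others in cAEs. The 3 CTCF peaks over the internal TPM1 start held no CTCF core consensus, while 8 of the 18 CTCF peaks of this stretch did.

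**Figure D4:**
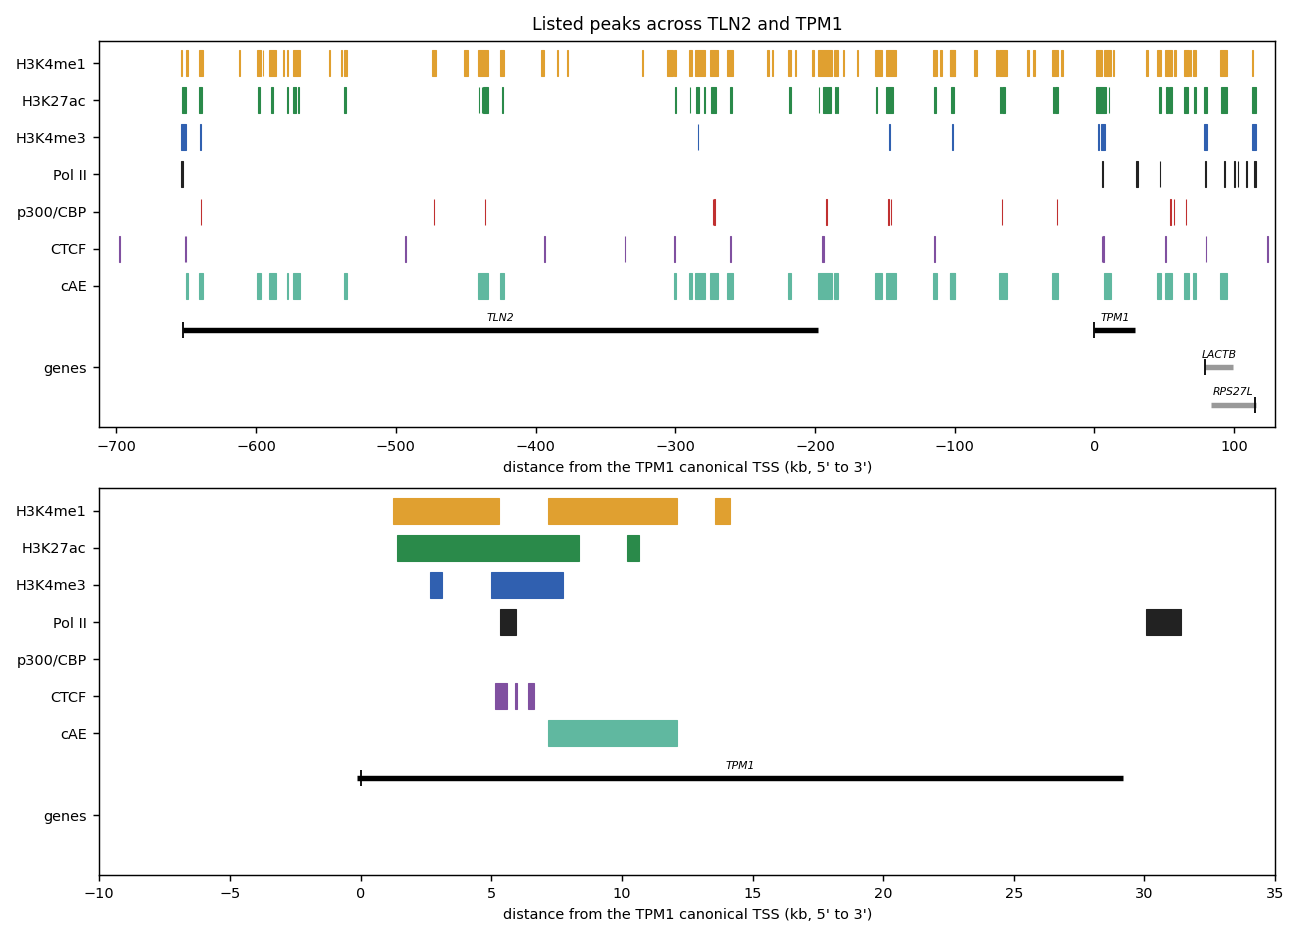
Listed peaks and cAEs across TLN2 and TPM1 (top) and from 10 kb before to 35 kb after the TPM1 TSS (bottom), with distance from the canonical TPM1 TSS in kb on the x axis. Vertical ticks on the gene lines mark canonical start sites; Pol II bars stand at the TLN2 start and at the internal TPM1 start, with none between them.

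ACTN4 was the member with the widest regions of 4 lists. An H3K4me1 region of 63250 bp (chr19:39142501-39205751) began 4.21 kb past the TSS, counted as a cAE because it touched no canonical promoter window, and ranked 2 among 88319. It holds another annotated start of ACTN4 (ACTN4-211), and would not count as a cAE with the windows of all annotated starts left out. H3K27ac of 24150 bp covered the TSS and ranked 6 among 41034, and H3K4me3 of 12050 bp began 12 bases past the TSS and ranked 22 among 24693. Together H3K27ac covered 71.9% and H3K4me1 90.2% of the gene. The gene body held 7 p300/CBP peaks, 5 of them in the wide cAE. They stood 3.56, 3.76, 10.3, 18.4, 35.9, 36.1 and 45.9 kb from the TSS, and the H3K4me3 peaks of the gene likewise ended by 46.5 kb. Another p300/CBP peak lay 10.4 kb upstream in a cAE of 12.95 kb that reaches into EIF3K. In the ACTN4 window 5 of 60 words of 50 bases occurred elsewhere in the genome.

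**Figure D5:**
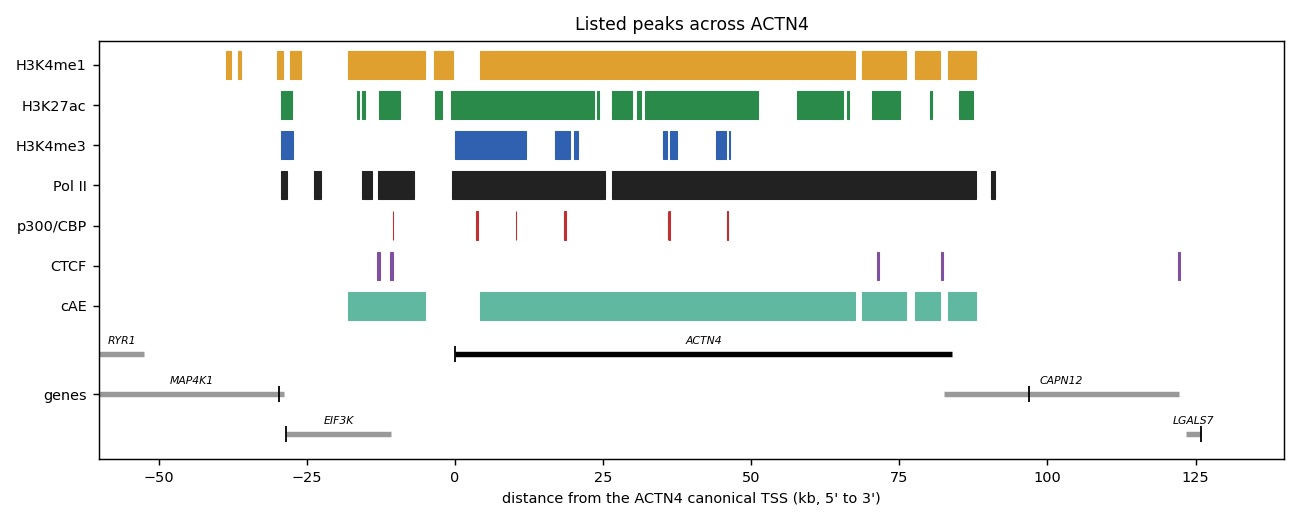
Listed peaks and cAEs from 60 kb before to 140 kb after the ACTN4 TSS (x axis, kb), with neighbouring genes as grey lines and canonical start sites as ticks. The 2 Pol II bars cover 98.7% of the gene, the 63250 bp H3K4me1 region begins 4.21 kb past the TSS, and the 7 p300/CBP peaks lie within the gene.

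At ACTN1 2 cAEs of 29.15 kb and 15.65 kb lay in the first part of the gene without p300/CBP, and 4 of the 5 p300/CBP peaks of its locus lay 194.1 to 200.2 kb from the TSS in a cAE of 10.25 kb next to ZFP36L1, a gene for an RNA-binding protein. Of the cAEs in the gene, the wider ranked 51 among all H3K4me1 regions. Both hold an annotated ACTN1 start. TPM4 has cAEs of the same kind of 9900 bp and 1850 bp, and TLN2 has one of 7250 bp. These too would not count with the windows of all annotated starts left out. TPM4 had a cAE of 9.9 kb around its upstream start, with Pol II and CTCF but no p300/CBP. At MYL9 a cAE of 13000 bp lay 65.2 kb upstream in DLGAP4, touched by 3 H3K4me3 and 3 Pol II peaks and by no p300/CBP peak. The MYL9 locus held 19 cIEs, second among the members after the 20 of TLN2. The TPM2 locus, with 11 other protein-coding genes, held 15 CTCF peaks and 4 cAEs, none of which touched TPM2.

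Of the 89 CTCF peaks, 42 held the CTCF core consensus with at most 1 mismatch in the 300 bases about their centre, against 54.8% of the whole list. In the stretch of TLN2 and TPM1 7 of the 8 cores lay on the minus strand. A core from the MYL9 start and another from the cAE 50.7 kb past TPM1 are shown on the plus strand with the core in capitals.
MYL9 (chr20:35170548-35170647): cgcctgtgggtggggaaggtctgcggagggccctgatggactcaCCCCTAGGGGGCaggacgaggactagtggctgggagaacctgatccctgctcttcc
TPM1 downstream (chr15:63385920-63386019): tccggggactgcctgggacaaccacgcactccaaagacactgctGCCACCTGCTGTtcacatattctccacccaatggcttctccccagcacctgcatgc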

How the data were processed

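ChIP-seq libraries of MDA-MB-231 cells were made for 6 antibodies. As the methods of the study state it, the authors aligned reads to hg19 with BWA-backtrack, while the submitters' processing notes list Bowtie2. Uniquely mapped reads were counted in 50 bp bins with PASHA, replicates were merged, and bins above a threshold were joined into peaks (threshold 30 for H3K4me1 and H3K4me3, 50 for H3K27ac, Pol II and CTCF, 60 for p300/CBP; gaps joined up to 1000 bp for H3K4me1, 800 bp for Pol II, 500 bp for H3K27ac and H3K4me3 and 50 bp for the others). Widths of different lists therefore do not compare. The deposited lists give peak positions in base pairs only. By their names, the lists of histone marks and of p300/CBP come from scaled, background-subtracted signal, that of Pol II from scaled signal and that of CTCF from signal with neither step. Input libraries were not analysed here.

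Peak starts and ends were 1 past multiples of 50, so that ends were read as exclusive. Genes and start sites came from GENCODE release 44 mapped to GRCh37, and sequences from that genome. Overlap meant at least 1 bp. Positions were compared with Python 3.11.15, NumPy 2.4.6, SciPy 1.17.1 and pysam 0.24.0, after 6000 comparisons on simulated intervals had given 0 errors, and drawn with matplotlib 3.10.9. Words of 50 bases were searched with BLASTN 2.17.0, exact matches only. Of the value columns, 0 were left unmapped. The genes, lists and settings were chosen with earlier results of these data known. Named were all 10 genes, the genes of the lists, neighbours whose gene body holds a named element, the widest cAEs and those with p300/CBP, and p300/CBP peaks within 100 kb. Intervals are 95% Wilson intervals and cover counting error only. Alternatives changed the window, the flank, the peaks kept and the definition of cAEs. Some sequences upstream of start sites, and the CArG boxes and TATAAA in them, are not reported here.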

Additional observations from a re-analysis of the deposited data

How the results depend on the processing

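No paired analysis was possible because replicates were merged before peaks were called and leaving out a replicate was impossible too. Sequencing depth is unknown, and a missing peak shows only that the signal stayed under the authors' threshold. Of 63 alternative values for 17 results, 48 lay within 1.5 times the value reported, and the other 15 are given here with the medians of Pol II. With the TSS base itself required to lie in a peak, the members marked were 3 for H3K4me1, 6 for H3K27ac, 5 for H3K4me3 and 0 for CTCF, since peaks flank several starts. In a 1 kb window they were 4 for H3K4me1 and 1 for CTCF. The 82 cAEs became 54 within 50 kb, 42 within 25 kb, 30 in gene bodies, 71 with the windows of all annotated starts left out, 47 after dropping peaks narrower than their list's median and 37 when 50% of the region had to be covered by H3K27ac. The 27 p300/CBP peaks became 14 within 25 kb and 12 in gene bodies, and the 89 CTCF peaks 49 and 24. The median Pol II share of 21.1% became 24.3% with 3 kb past each end, 19.9% with wide peaks only and 23.3% over the canonical transcripts, a setting chosen after seeing the data.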
